A study of Mus musculus with 7 samples.

Results

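Proteasome genes were compared between quadriceps femoris muscle of mice overexpressing mutant Twinkle, the helicase that unwinds mitochondrial DNA for replication, and muscle of wild-type mice. They were taken as every probe set annotated to exactly 1 gene symbol that begins with Psma, Psmb, Psmc or Psmd followed by a digit. That gave 80 of 34945 probe sets with 1 symbol, for 40 of 18193 genes. RNA of each sample was hybridised to a single-colour Affymetrix array, with 3 mutant arrays (mutants 1 to 3, aged 24, 24 and 21 months) and 4 wild-type arrays (wild types 1 to 4, aged 26, 24, 21 and 23 months). The series presents these mice as a model of progressive external ophthalmoplegia, a mitochondrial disease of the eye and skeletal muscles. The titles number the samples of each genotype as biological replicates. The labels do not name the strain, the sex, the number of founder lines or the promoter of the transgene. No treatment is given for either group.

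The 26S proteasome degrades proteins that carry ubiquitin chains. Its barrel, the 20S core, is made of rings of alpha subunits, which gate the entrance, around rings of beta subunits, which hold the proteolytic sites. The 19S particle caps the barrel: its base carries a ring of ATPases that unfold the substrate, and its lid removes the ubiquitin. In immune cells and under interferon, 3 other catalytic beta subunits replace the usual ones and form the immunoproteasome, which cuts peptides for presentation on class I molecules. In skeletal muscle, the ubiquitin and proteasome system takes apart myofibrillar proteins during wasting and fasting.

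The 40 genes fell into 8 alpha subunits, 7 constitutive beta subunits, the 3 immunoproteasome subunits Psmb8, Psmb9 and Psmb10, and the thymic beta subunit Psmb11. They also held 6 ATPases, 3 other subunits of the base, 8 lid subunits and 3 chaperones that help to assemble the base (Psmd5, Psmd9 and Psmd10). The remaining gene, Psmc3ip, has a matching symbol but encodes a recombination protein that is not a proteasome subunit. All values are log2 values relative to the probe set's own median over the 7 arrays, so they show differences between arrays and hold no level. Of the members' probe set values 22.1% were exactly 0, against 27.1% over all probe sets with 1 symbol, more than the 1 in 7 that the median itself gives. A coarse level class on the log2 scale was recovered from the precision of the stored numbers. Probe sets with several values of exactly 0 leave fewer numbers to read, so their class is less certain. By it, 30 of the 40 genes lay between 8 and 16, compared with 23.7% of all genes. Psmb2, Psmb8, Psmb9, Psmb10, Psmd5, Psmd9, Psmd10 and Psmc3ip lay between 4 and 8. Psma8, the testis alpha subunit, and Psmb11, the subunit of the thymic cortex, lay in the lowest class, between 2 and 4.

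Some facts of the arrays bear on what follows. All 10 muscle fibre markers were in the highest level class, against 2 of 10 cerebellum markers (Mbp and Car8). The class of Car8 is less certain, since its value was exactly 0 in 4 arrays. The free-text sample descriptions name cerebellum where the other labels name muscle. Twnk, the gene of Twinkle, read -0.15, 0.44 and 0 in the mutants and 0.34, -0.13, -0.14 and 0.15 in the wild types, a difference of 0.040 ± 0.18 (SE). Whether its 1 probe set lies within the transgene is not stated, so these values do not check the labels. Over all probe sets, mutant 2, wild type 1 and wild type 4 correlated with one another (Pearson r 0.361 to 0.49) and inversely with the other 4 arrays (-0.476 to -0.158). The controls for 18S rRNA stood at 3.19 in mutant 1 and between -0.77 and 0.56 elsewhere. In wild type 3 the 5' minus 3' signal of Gapdh was -0.55, against -0.040 to 0.094 in the other arrays. The same measure for beta-actin did not set that array apart, at 0.12 in wild type 3 and 0.12 in wild type 2, with the lowest value, -0.14, in mutant 1. The mean of the muscle fibre markers was -0.70 in wild type 3, against -0.10 to 0.17 elsewhere.

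No proteasome gene differed between mutant and wild-type muscle beyond the spread between animals. In limma's fit across all 18193 genes, 0 of 40 members had an adjusted p under 0.05, and 0% of all genes did, the smallest adjusted p being 1.00. At an unadjusted p under 0.05 limma called 0 of 40 members and 263 of all genes, or 1.45%. No member had its mutant arrays all above the wild types, an order that 0.896% of all genes showed, or all below them, which 1.21% showed. The mutant mean was nominally higher for 26 members and lower for 14. It was higher for 8470 and lower for 9723 of all genes. In the highest level class it was higher for 2385 genes and lower for 1919. The members' median difference, mutant minus wild type, was 0.038 log2 units, against -0.010 for all genes tested and 0.016 for all genes in the highest level class. It was -0.015 without wild type 3 and 0.088 without mutant 1. Differences ran from -0.19 (Psmc6) to 0.19 (Psmd1), and the smallest unadjusted p was 0.182, for Psma4 (limma).

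How large a difference these 7 arrays leave room for can be read from the intervals. The 95% interval of limma lay within 1 log2 unit of 0 for all 40 genes, and within 0.5 for 24 of them. The lowest bound was -0.86, for Psmc6, and the highest was 0.80, for Psmb1. The median SD over the 7 arrays was 0.21 for the members in the highest level class and 0.23 for all genes of that class.

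**Figure D1:**
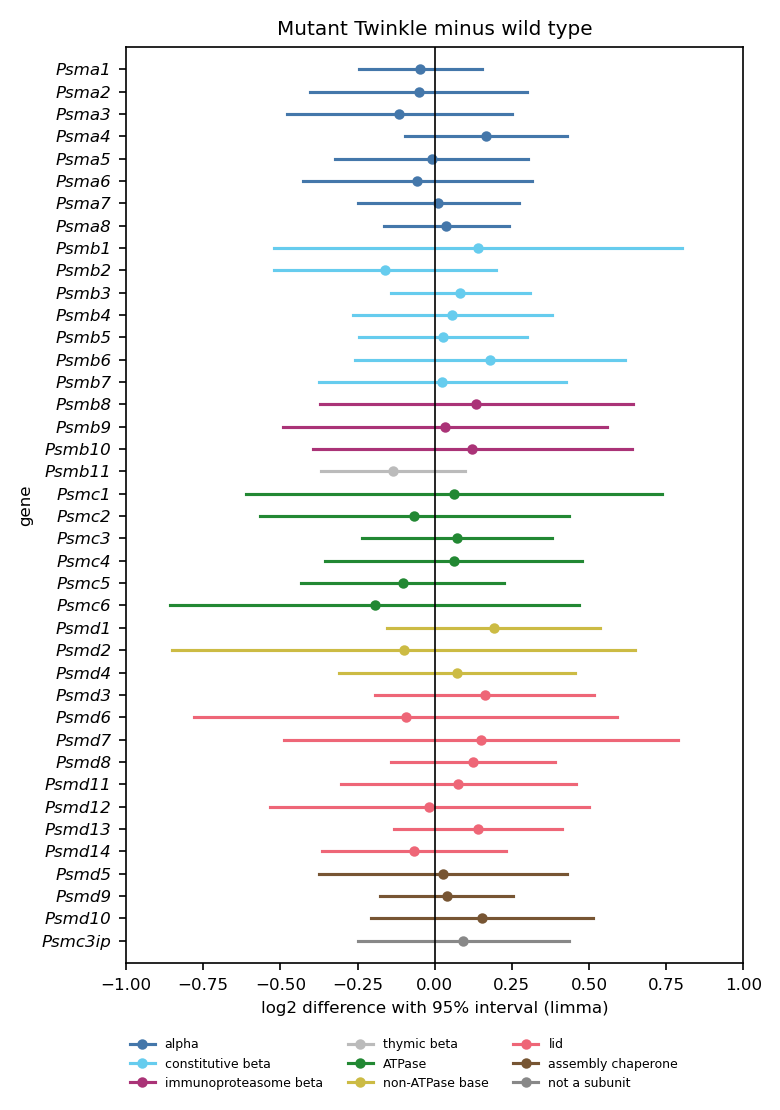
Difference in log2 value between mutant Twinkle and wild-type muscle (x axis) for each proteasome gene (y axis), coloured by class. Points are limma estimates from 3 mutant and 4 wild-type arrays and bars are 95% intervals. All 40 bars cross 0, and the points lie between -0.19 and 0.19.

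The alpha subunits form the outer rings, and their N-terminal ends close the pore until a cap opens it. Of the 8, 3 were nominally higher and 5 lower, with a median difference of -0.028. The median turned to 0.058 without mutant 1, the array with the high 18S controls, and to 0.0099 without wild type 1. Psma4 read 0, 0.00083 and 0.29 in the mutants and -0.026, 0.070, -0.11 and -0.21 in the wild types, a difference of 0.17 ± 0.11 (SE). Only mutant 3 was above wild type 2, so the groups overlapped. Psma3 read -0.30, 0.25 and 0 against 0.31, -0.075, 0 and 0.16, a difference of -0.11 ± 0.16. Its high arrays were mutant 2 and wild types 1 and 4. Psma1 varied little, at -0.14, -0.018 and 0.043 against 0.066, 0.031, -0.089 and 0.026, and the difference was -0.046 ± 0.085.

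Among the constitutive beta subunits, 6 were nominally higher and 1 lower in the mutants, with a median difference of 0.057, which was -0.015 without mutant 3, 0.017 without mutant 1 and 0.11 without mutant 2. Psmb5, Psmb6 and Psmb7 carry the chymotrypsin-like, caspase-like and trypsin-like sites. Psmb5 read 0.050, -0.20 and 0.051 in the mutants and -0.12, 0.12, 0 and -0.23 in the wild types, a difference of 0.027 ± 0.12 (SE). Psmb6 read 0.068, -0.23 and 0.21 against -0.40, 0.19, 0 and -0.44, a difference of 0.18 ± 0.19. For Psmb7 the values were 0.078, -0.37 and 0.24 against -0.21, 0.21, 0 and -0.17, a difference of 0.025 ± 0.17. In all 3 genes mutant 2, wild type 1 and wild type 4 were the lowest arrays, and the genotypes overlapped.

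The noncatalytic beta subunits did not share one pattern. Psmb1 had the same low arrays as the catalytic subunits, at 0.14, -0.67 and 0.22 in the mutants and -0.56, 0.18, 0 and -0.59 in the wild types, and differed by 0.14 ± 0.28 (SE). Psmb2 read 0.0081, -0.29 and 0 against -0.13, 0.39, 0.14 and -0.12, the only member of the class with a lower mutant mean (-0.16 ± 0.15). Psmb3 read 0.00084, 0.10 and 0.033 against 0.12, 0.014, -0.18 and -0.10, a difference of 0.083 ± 0.096. Here wild type 1 was the highest array and wild type 3 the lowest.

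The immunoproteasome subunits were each nominally higher in the mutants, with a median difference of 0.12, but the wild types spanned the mutants for all 3. Psmb8, which replaces Psmb5, read 0.16, -0.14 and 0 in the mutants and -0.39, 0.027, 0.37 and -0.52 in the wild types, a difference of 0.13 ± 0.22 (SE) with a 95% interval from -0.37 to 0.64. Psmb9, which replaces Psmb6, read 0.46, -0.0018 and 0 against -0.25, 0.18, 0.62 and -0.074, a difference of 0.033 ± 0.22. Psmb10, which replaces Psmb7, read 0.14, -0.088 and 0 against -0.47, 0.072, 0.40 and -0.43, a difference of 0.12 ± 0.22. In each gene wild type 3 was the highest array and the lowest was wild type 1 or wild type 4. The class median moved to -8.7e-06 without wild type 1, to 0.0053 without wild type 4 and to 0.29 without wild type 3.

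Leukocyte markers were, on average, high and low in much the same arrays. The mean over 12 such genes, among them Ptprc, Cd68, Tyrobp and C1qa, was 0.25, -0.21 and -0.050 in the mutants and -0.48, 0.058, 0.52 and -0.50 in the wild types. The immunoproteasome mean was 0.25, -0.076 and 0 against -0.37, 0.092, 0.46 and -0.34. Both means were highest in wild type 3 and lowest in wild types 1 and 4. Of the 12 markers, 10 read above 0 in wild type 3, and 10 read below 0 in each of wild types 1 and 4. A gene averaged over several probe sets need not have a median of 0. Cd3e and Cd79a did not share this order. In the wild types they read 0, 0, 0.012 and 0.073, and 0, 0.12, 0 and 0.015. Of the 12 markers, 3 lay in the highest level class, 8 in the next and 1, Cd79a, in the lowest. Markers of other cell types varied as well. The mean of 6 fibroblast markers was 0.20, -0.090 and 0.036 in the mutants and -0.016, -0.31, 0.88 and -0.29 in the wild types. For 4 adipocyte markers it was 0.085, -0.37 and -0.12 against -0.84, 0.52, 0.95 and -0.035, and for 6 endothelial markers 0.17, 0.063 and 0.037 against -0.20, 0.11, -0.0014 and -0.37. Fibroblast and adipocyte markers were thus highest in wild type 3 too, and endothelial markers lowest in wild types 1 and 4. In bulk muscle, fewer cells of a type and less RNA per cell cannot be told apart, and the part of leukocytes or of these other cells in the immunoproteasome values was not tested.

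The exchange of a constitutive for an inducible subunit can also be read within an array. Psmb8 minus Psmb5 averaged 0.039 ± 0.082 (SD, n = 3) in the mutants and -0.069 ± 0.30 (SD, n = 4) in the wild types. Psmb9 minus Psmb6 averaged 0.13 ± 0.31 in the mutants and 0.28 ± 0.27 in the wild types. Psmb10 minus Psmb7 averaged 0.037 ± 0.26 and -0.060 ± 0.31. Each pair of means differed by less than 1 SD of the wild types. The signs were not the same in the 3 pairs, since the mutants were lower for Psmb9 minus Psmb6. These are differences relative to each probe set's median and do not give the proportion of either subunit.

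The ATPases of the base, Psmc1 to Psmc6, split evenly, with 3 nominally higher and 3 lower and a median difference of -0.0022. That median was -0.15 without mutant 2, -0.14 without wild type 3, 0.091 without wild type 1 and 0.086 without mutant 1. Psmc6 read -0.63, 0.42 and 0 in the mutants and 0.56, -0.10, -0.24 and 0.28 in the wild types, and its difference of -0.19 ± 0.28 (SE) was the most negative of all members. Psmc5 read -0.12, 0 and 0.13 against 0.074, 0.44, -0.073 and -0.0061, a difference of -0.10 ± 0.14. Psmc3 read 0, -0.0030 and 0.094 against 0.093, 0.19, -0.31 and -0.15, a difference of 0.073 ± 0.13. Psmc6 was high in mutant 2 and wild types 1 and 4 and low in mutant 1. The highest array of Psmc5 and of Psmc3 was wild type 2.

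The other base subunits hold the ubiquitin and shuttle receptors Psmd2 and Psmd4 and the scaffold Psmd1. Psmd1 had the largest positive difference of all members, 0.19 ± 0.15 (SE), from 0, -0.0085 and 0.21 in the mutants and 0.043, 0.13, -0.39 and -0.27 in the wild types. Psmd4 read -0.12, 0.077 and 0.040 against 0.076, 0.20, -0.46 and -0.11, a difference of 0.072 ± 0.16. Psmd2 read -0.41, 0.54 and -0.26 against 0.55, 0, -0.59 and 0.27, a difference of -0.10 ± 0.32. All 3 were lowest in wild type 3, and the genotypes overlapped in each. The class median of 0.072 was -0.058 without wild type 3.

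Lid subunits had a median difference of 0.10, with 5 nominally higher and 3 lower. The lid includes the deubiquitinase Psmd14, which read -0.19, 0.21 and -0.098 in the mutants and 0.24, 0, 0 and -0.078 in the wild types. Psmd13 read 0.040, 0.14 and 0 against -0.24, 0.15, -0.025 and -0.20, a difference of 0.14 ± 0.12 (SE). Psmd8 read 0.0099, 0.17 and 0 against 0.14, 0, -0.19 and -0.20, a difference of 0.12 ± 0.11. Both had wild types above some mutants. Psmd3 read 0.10, -0.040 and 0.056 against -0.20, 0.17, 0 and -0.46, a difference of 0.16 ± 0.15. Psmd14 was named after its values were seen. Without wild type 3 the lid median was -0.040, and without mutant 2 it was 0.018.

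The assembly chaperones hold the ATPases in place while the base is built and then leave. Psmd10 read 0, -0.25 and 0.18 in the mutants and -0.32, 0.0075, 0.011 and -0.41 in the wild types, a difference of 0.15 ± 0.15 (SE). Psmd9 read -0.014, 0 and 0.065 against -0.049, 0.069, 0.069 and -0.18, a difference of 0.038 ± 0.092. Psmd5 read -0.056, 0.52 and -0.18 against 0.20, -0.034, 0 and 0.10, a difference of 0.028 ± 0.17. Psmd10 was low, and Psmd5 high, in mutant 2 and wild types 1 and 4. The 2 genes in the lowest level class and Psmc3ip are given for completeness: the difference was 0.037 ± 0.087 for Psma8, -0.14 ± 0.10 for Psmb11 and 0.092 ± 0.15 for Psmc3ip.

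**Figure D2:**
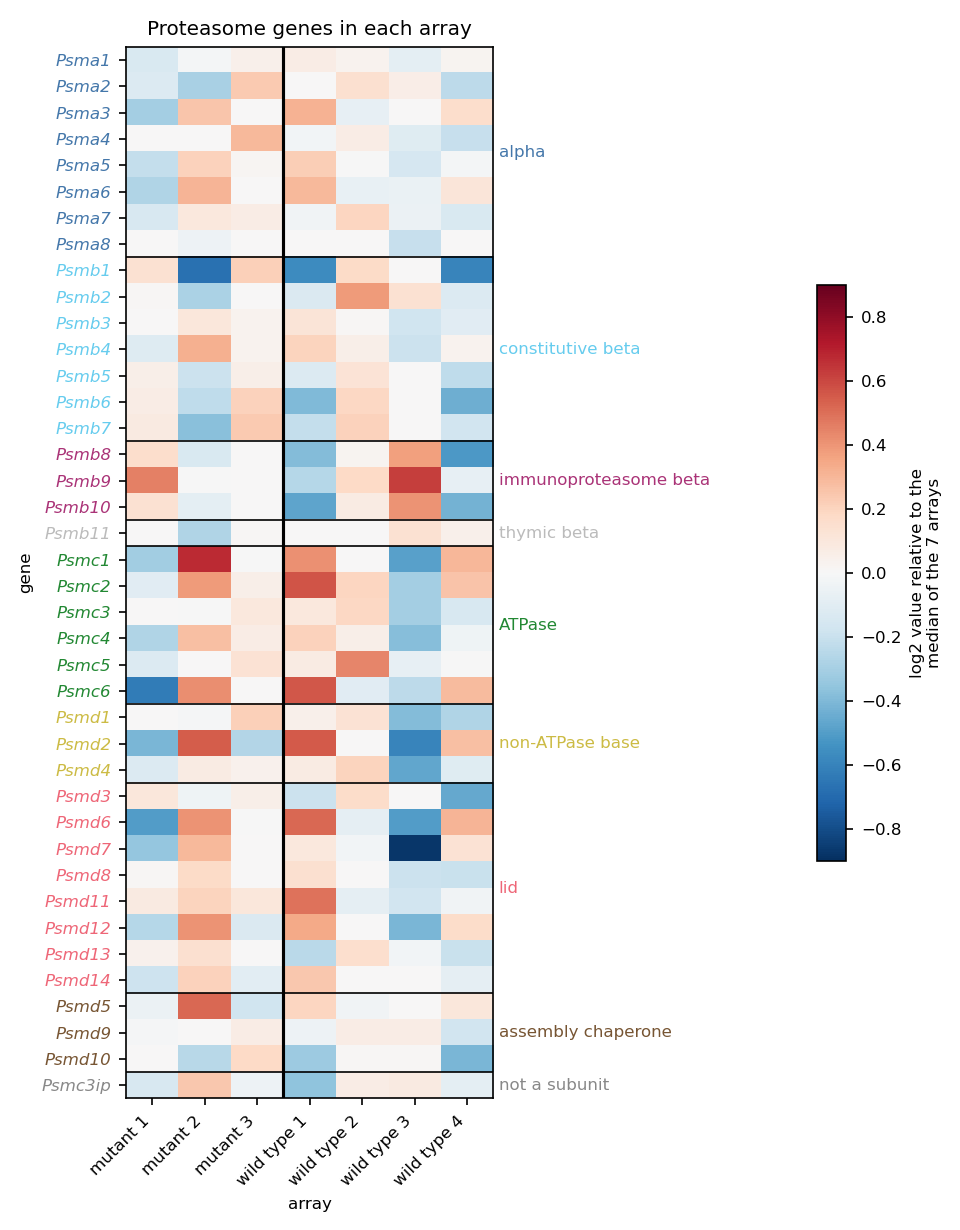
Log2 value of each of the 40 proteasome genes (rows, ordered and coloured by class) in each array (columns). Values are relative to the probe set's median over the 7 arrays, averaged where a gene had several probe sets in use. Red is positive and blue negative, and the vertical line separates mutant from wild type. Columns differ more by array than by genotype, with mutant 2 and wild type 1 red over many ATPase and lid genes and blue over Psmb1, Psmb6 and Psmb7.

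Most of the variation of these genes lay between arrays of the same genotype: the genotypes took a median of 4.76% of a member's sum of squares over the arrays, against 6.89% for all genes, and at most 32.9%. The ATPases, base and lid together (17 genes of the 19S particle) averaged -0.18, 0.24 and 0.015 in the mutants and 0.23, 0.073, -0.32 and 0.010 in the wild types. Of the 17 genes, 15 read above 0 in wild type 1 and 13 in mutant 2, and 15 read below 0 in wild type 3. The mean of Psmb5, Psmb6 and Psmb7 went another way, at 0.065, -0.27 and 0.17 in the mutants and -0.25, 0.17, 0 and -0.28 in the wild types. Mutant 2 and wild type 1, the arrays highest for the 19S genes, were thus among the 3 lowest for the catalytic subunits. Wild type 3 was lowest for the 19S genes and at 0 for all 3 catalytic subunits.

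Over the 7 arrays the median Pearson correlation between pairs of genes was 0.91 within Psmb5, Psmb6 and Psmb7, 0.915 within the immunoproteasome and 0.584 within the 19S particle. It was 0.283 within the alpha subunits and 0.0077 over all pairs of 4304 genes in the highest level class. Between the 3 catalytic subunits and the 19S genes it was -0.402, and between the immunoproteasome and the catalytic subunits 0.556. The alpha subunits had a median of 0.46 with the 19S genes. These coefficients describe 7 arrays that share the split into correlated sets given above, and carry no test.

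**Figure D3:**
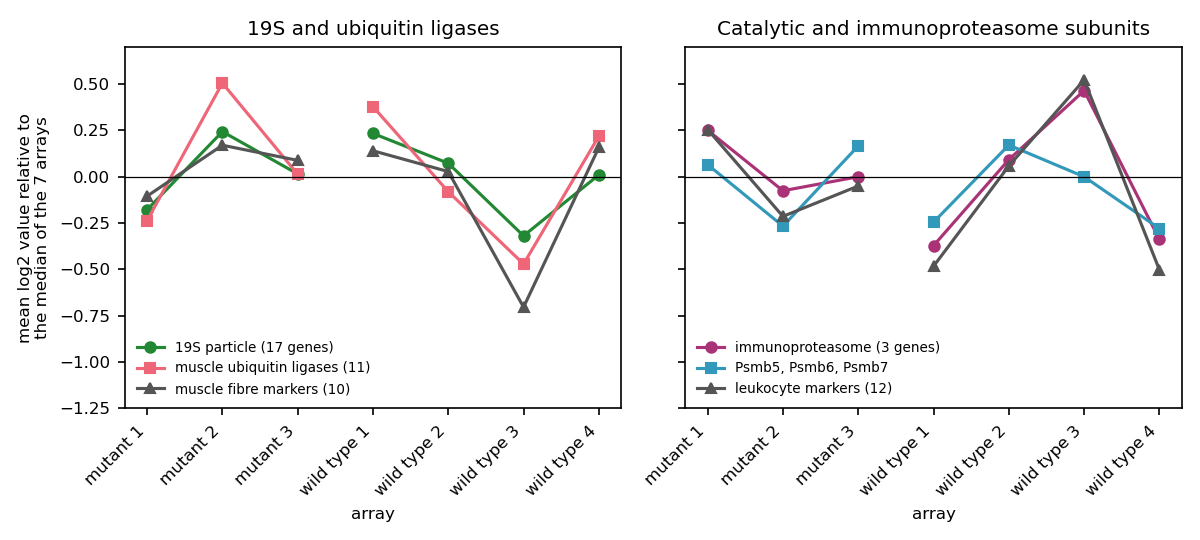
Mean log2 value relative to the probe set medians over the 7 arrays (y axis) in each array (x axis). Lines join the arrays of a genotype for reading only. The left panel shows 17 genes of the 19S particle, 11 muscle ubiquitin ligases and 10 muscle fibre markers, all lowest in wild type 3. The right panel shows the immunoproteasome, Psmb5, Psmb6 and Psmb7, and 12 leukocyte markers, of which the first and last are highest in wild type 3.

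Mutant 2, wild type 1 and wild type 4 were the 3 highest arrays for 10 of 40 members, or 25.0%, an order that 9.71% of all genes showed. These were Psma3, Psma6, Psmc1, Psmc2, Psmc6, Psmd2, Psmd5, Psmd6, Psmd7 and Psmd12. Among genes of the highest level class the share was 9 of 30 members against 17.2% of all. The same arrays were the 3 lowest for 10 other members, Psmb1, Psmb2, Psmb5 to Psmb10, Psmd3 and Psmd10, against 11.1% of all genes. In the highest level class that order held for 5 of 30 members, or 16.7%, close to the 16.2% of all genes. The set of arrays was picked from the values, so these counts describe the arrays and are not a test.

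Promoters were set beside this split. RefSeq promoter windows, from 250 bases before to 50 after the transcript start on GRCm38.p6, were found for 33 of the 40 genes and gave 35 windows. The letters TGACNNNGC, the core of the antioxidant response element that NFE2L1 and NFE2L2 bind, were searched on both strands because NFE2L1 is the factor that raises proteasome genes when proteasome activity falls short. They were present in 5 of 35 windows, those of Psmb5, Psmb6, Psmc6, Psmd9 and Psmd12, against 12.4% of 32851 promoters of the same length. For 4 of these genes 100 bases of the promoter are printed 5' to 3' on the gene's strand with the match in capitals. Psmb5 and Psmb6 are shown as low, and Psmc6 and Psmd12 as high, in mutant 2 and wild types 1 and 4.
Psmb5, chr14:54617996-54618095, minus strand: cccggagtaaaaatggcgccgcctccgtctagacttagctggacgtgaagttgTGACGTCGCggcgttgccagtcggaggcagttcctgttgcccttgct
Psmb6, chr11:70525257-70525356, plus strand: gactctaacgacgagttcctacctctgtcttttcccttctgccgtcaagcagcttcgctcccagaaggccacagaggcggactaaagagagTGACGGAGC
Psmc6, chr14:45329574-45329673, plus strand: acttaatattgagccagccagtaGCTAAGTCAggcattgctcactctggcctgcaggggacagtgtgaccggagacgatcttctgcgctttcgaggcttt
Psmd12, chr11:107479278-107479377, plus strand: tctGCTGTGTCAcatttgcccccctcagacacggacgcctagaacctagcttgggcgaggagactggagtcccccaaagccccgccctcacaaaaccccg

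The first base of the match on the gene's strand lay 47 bases before the start in Psmb5 and 9 bases before it in Psmb6. It lay 227 and 247 bases before the start in Psmc6 and Psmd12, where the reverse strand holds the letters. The letters occurred in promoters of genes that were low and of genes that were high in these arrays. Psmd9, whose match is not printed, had neither order, at 0 in mutant 2, -0.049 in wild type 1 and -0.18 in wild type 4. Nfe2l1 itself read 0.41, -0.32 and 0.17 in the mutants and -0.15, 0.15, 0 and -0.49 in the wild types, a difference of 0.21 ± 0.21 (SE). It was lowest in mutant 2 and wild types 1 and 4, and its part in the proteasome values was not tested. Nfe2l2 stayed between -0.16 and 0.047 in all 7 arrays and is named here after its values were seen.

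For the immunoproteasome, the letters of the gamma-activated site, TTCNNNGAA, an element of the response to interferon gamma, were present in the promoters of Psmb8 and Psmd2 (2 of 35 windows) and in 8.3% of all promoters. The window of Psmb8 is printed in the same way, with the match 97 bases before the start.
Psmb8, chr17:34198052-34198151, plus strand: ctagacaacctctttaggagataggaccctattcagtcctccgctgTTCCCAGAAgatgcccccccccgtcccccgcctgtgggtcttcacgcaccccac

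The core of the interferon-stimulated response element was found in 3 of 35 windows, those of Psmb3, Psmd4 and Psmd9, against 3.44% of all. CCAAT was in 14 of 35 windows against 37.4% of all promoters. CCGGAAGT, the core of ETS factor sites, was in 7 of 35 windows, of 6 genes, against 3.89% of all. Among the 21262 promoters of protein-coding genes the share was 5.15%. The 6 genes were Psma6, Psmc1, Psmc2, Psmd6, Psmd12 and Psmd13. GGAAGTG, which overlaps the end of that motif, was in 7 windows against 11% of all, and the AP-1 type TGANTCA in 2 against 7.81%. GGGAAACC and GCCGCCATT were in 0 of 35 windows, against 1.61% and 0.435% of all. The paired CCAAT motif was in 0 windows, against 0.0426% of all. A YY1 type motif, the NRF1 palindrome and a CGCG palindrome were in 1 window each, against 0.633%, 0.615% and 0.466% of all. In all, 13 motifs were searched on both strands after the values had been seen, and a match is a description of the letters only.

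No probe set was called either. Of the 80, 48 were nominally higher and 32 lower in the mutants, from -0.36 to 0.26, with a smallest unadjusted p of 0.115 (limma). At an unadjusted p under 0.05, limma called 0 of 80 and 1.79% of all 34945 probe sets. Probe sets of 1 gene often parted from each other. Of 21 genes with over 1 probe set, 15 had differences of both signs. In 7 of these the split lay among the probe sets that were averaged, and in 8 it came through a probe set in a lower level class.

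Among the averaged probe sets, the differences for Psma1 were -0.14 and 0.052, and its lower-class probe sets gave -0.024 and 0.26. Those for Psma5 were 0.016 and -0.036, with 0.092 in a lower class. Psma7 gave -0.068 and 0.090. These alpha subunits thus have no sign that their probe sets share. Psmc4 gave -0.071 and 0.19, Psmd6 -0.19 and 0.0051, and Psmd9 0.080 and -0.0030, with 0.079 in a lower class. Psmd11 gave 0.10, 0.16, -0.14, 0.25 and 0.0079, and -0.17, -0.027 and 0.039 in a lower class. Of these, Psmd11 has the most probe sets of any member.

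In the other 8 the averaged value and a dimmer probe set disagreed. Psma3 had -0.11 against 0.0015, and Psmb1 had 0.14 against 0.14 and -0.11. Psmc1 had 0.061 against -0.12, and Psmc2 had -0.035 and -0.096 against 0.25. The dimmer probe sets of both ATPases lay in the lowest level class. Psmd2 had -0.10 against 0.024, Psmd4 had 0.076 and 0.068 against -0.30, Psmd7 had 0.15 against 0.14 and -0.10, and Psmd13 had 0.14 against 0.033, 0.045 and -0.064. No probe set of these genes passed an unadjusted p of 0.05 (limma).

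Probe sets of 1 gene also disagreed within arrays. Of 12 genes with several probe sets in the highest level class, 4 had a pair with a negative correlation over the arrays. For Psmb4 it was -0.728, with 1 probe set at 0.79 and the other at -0.14 in mutant 2. In Psmd11 the pairs ran from -0.587 to 0.978, and probe sets differed by up to 1.44 within 1 array. For Psmc4 the correlation was -0.0523 and the largest gap 0.714. In each of these genes 1 probe set or more followed the 19S pattern, high in mutant 2 and wild type 1, and another did not.

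**Figure D4:**
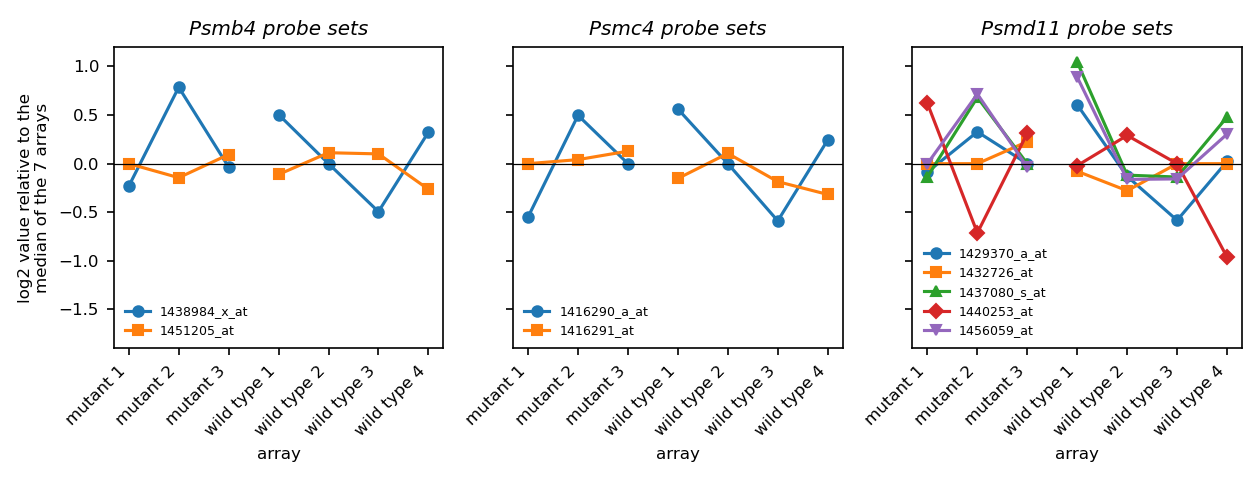
Log2 value relative to the median of the 7 arrays (y axis) of each probe set in the highest level class for Psmb4, Psmc4 and Psmd11, by array (x axis). Each line is 1 probe set, broken between genotypes. Probe sets of 1 gene differ by up to 0.93 in Psmb4, 0.714 in Psmc4 and 1.44 in Psmd11 within an array.

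Genes that regulate, build or feed the proteasome also gave no call. Of 16 regulators and assembly factors, 11 were nominally higher and 5 lower, with a median difference of 0.013 and 0 of 16 past an adjusted p of 0.05 (limma), as for all the lists that follow. Zfand2a, a proteasome-associated stress protein, differed by 0.24 ± 0.11 (SE) and Psmf1, an inhibitor of the core, by -0.13 ± 0.088. Of 5 genes of transcriptional control and import, 3 were higher and 2 lower. Nfe2l1 is given above, and Akirin2, which helps to bring proteasomes into the nucleus, differed by 0.084 ± 0.090. Of 8 ubiquitin and shuttle genes, 6 were higher and 2 lower, among them Nsfl1c, a cofactor of the segregase Vcp, at 0.21 ± 0.11 and the shuttle Ubqln2 at -0.24 ± 0.16.

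The ubiquitin ligases that act in muscle wasting varied with the arrays too. Of 11 ligases, 7 were nominally higher and 4 lower, with a median difference of 0.095, and Traf6 (0.20 ± 0.13, SE) and Stub1 (0.19 ± 0.19) had the smallest p. The list mean was -0.24, 0.51 and 0.014 in the mutants and 0.38, -0.081, -0.47 and 0.22 in the wild types. Trim63, or MuRF1, read -0.61, 0.60 and 0 against 1.03, -0.12, -1.14 and 0.35, a difference of -0.032 ± 0.51. Fbxo32, or atrogin-1, read -0.71, 0.65 and 0.32 against 0.63, -0.34, -1.41 and 0.11, a difference of 0.34 ± 0.51. Both ligases, named after their values were seen, were high in mutant 2 and wild type 1 and lowest in wild type 3, where the 19S mean and the muscle fibre markers were lowest as well. The part of the muscle fibre markers in these values was not tested.

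Class I antigen processing and interferon genes, the usual company of the immunoproteasome, were measured for 11 and 16 genes. Of the antigen processing genes, 7 were nominally higher and 4 lower, with a median difference of 0.016. Erap1, which trims peptides in the endoplasmic reticulum, differed by 0.30 ± 0.19 (SE) and the transactivator Nlrc5 by -0.16 ± 0.11. B2m, the light chain of class I molecules, read 0.34, -0.56 and 0.093 in the mutants and -0.50, 0, 0.46 and -0.64 in the wild types, so its low arrays were mutant 2 and wild types 1 and 4, as for Psmb8 and Psmb10. B2m was named after its values were seen. The list as a whole did not share this order: in mutant 2, 6 of the 11 genes read above 0 and 3 below. The list mean was 0.00049, 0.087 and -0.043 in the mutants and -0.031, -0.046, 0.19 and -0.10 in the wild types. Of the interferon genes, 10 were nominally higher and 6 lower, with a median of 0.077. Their mean was 0.17, -0.054 and -0.062 in the mutants and -0.0205, -0.093, -0.023 and 0.064 in the wild types. It was highest in mutant 1, whereas the immunoproteasome mean was highest in wild type 3. Irf9, a subunit of the factor that answers type I interferon, was 1 of 16 with an unadjusted p under 0.05 (0.0433 in limma, adjusted p 1.00), at 0.30 ± 0.12. Over all genes, 263, or 1.45%, passed that unadjusted threshold. Usp18, an interferon-induced protease, differed by 0.41 ± 0.21 in the lowest level class.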

How the data were processed

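RNA was isolated with Trizol and converted to biotinylated cRNA, per the labels' protocols. The submitters' processing notes name GCOS 4.0. The deposited table holds log2 numbers centred by probe set, with a median over the arrays of exactly 0 in 45101 of 45101 probe sets. The summary method, scaling and centring are not given in the sources used here. The spacing of the stored numbers gave the level classes. By the platform annotation, which can be old, 34945 probe sets had 1 symbol, 932 several and 9211 none, a further 13 with 1 symbol being array controls that were left out, and symbols were updated through RefSeq.

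Probe sets of 1 gene were averaged within the gene's highest level class. Genotypes were compared with limma 3.58.1 in R 4.3.3 (lmFit, eBayes, two-sided, Benjamini-Hochberg over 18193 genes), which was tested on simulated data. No weak-signal filter was applied. The number of arrays limits the precision, and there is no read depth. Values in every array were given for Psmb5 to Psmb10, for the 3 genes of each other class with the smallest unadjusted p and for any called member. In each related list the 2 genes with the smallest p were named, and genes whose probe sets disagree in sign are given by probe set. The members and lists were chosen with earlier results of these data known. Same-numbered arrays were compared by the correlation of their deviations from the group means (-0.477, -0.305 and 0.154). These values are mixed with the split into correlated arrays, so they cannot settle whether the numbers pair the samples. The main fit treated the samples as unpaired. Alternatives covered scaling, probe set choice, the prior, weak genes, age, a replicate block, each array left out and, added after seeing the data, the correlated arrays as a block. Some genes of the related lists are not reported here.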

Additional observations from a re-analysis of the deposited data

Results flagged for a closer look

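Of the 40 genes, 2 had a wild-type array that stood apart from the other 3 wild types by Dixon's criterion, which chance meets in about 1 of 20 groups. Psmd7, a lid subunit, read -0.87 in wild type 3, while the other wild types lay between -0.022 and 0.13. Psma8 read -0.21 in wild type 3 and 0 in the other 3 wild types, in the lowest level class. The array is the one with the lowest 19S mean and the low Gapdh 5' minus 3' signal, which beta-actin did not share, and their part in these values was not tested.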

How the results depend on the processing

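limma called 0 genes and 0 members at an adjusted p under 0.05 under every alternative, which included quantile normalization, age as a covariate and each array left out. At an unadjusted p under 0.05, 0 members were called except with the correlated arrays as a block (1 member, Psmb2, and 908 of all genes) and within those 3 arrays (6 members and 3491 of all genes, with 1 residual degree of freedom). Of the class medians under alternatives, 2 moved by more than the spread between replicates: the assembly chaperones at 0.11 within the 3 correlated arrays and at -0.044 within the other 4, against 0.038. The cause was not tested. For the 24 genes named with values, 3 alternatives (centring, the variance trend and leaving out weak genes) return the same differences, and the replicate block repeats the values without wild type 4. Under the other 13 alternatives, 46 of 312 differences had the other sign, in 17 genes, and 4 moved by more than that spread. Leaving out 1 array at a time moved the median over all members between -0.015 and 0.088 and that of the immunoproteasome between -8.7e-06 and 0.29. With quantile normalization the median over all members was 0.039 and with age as a covariate 0.055. In the fit with the replicate block, which uses the 3 numbers that both groups share, it was 0.020, and the block changed no call. Class medians turned sign without 1 array for the alpha, constitutive beta, ATPase, base and lid genes. That of the immunoproteasome fell just below 0, to -8.7e-06, without wild type 1.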
